A study of Mus musculus with 8 samples.

Results

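The 9 genes Gls2, Glul, Glud1, Got1, Got2, Gpt2, Pycr1, Aldh18a1 and Prodh, which encode enzymes that make, use or exchange glutamine, glutamate and proline, were matched by symbol among the 56884 genes of a count table of mouse Lacun3 cells. Each symbol matched 1 gene, and all 9 were among the 13707 genes with enough counts to be tested. Lacun3 is a lung adenocarcinoma cell line. Cells with the genotype STK11 KO, made with CRISPR, were set against parental cells with the genotype STK11 WT, 4 libraries each, to find transcript changes that belong to the tumour cell itself. All cultures were untreated, grown in DMEM with fetal bovine serum and antibiotics, and harvested in log phase. The labels name 1 knockout line and do not say whether it is a clone or a pool, so the values describe a difference between these 2 lines.

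Glutamine is the most abundant free amino acid in blood and feeds nitrogen and carbon into growing tumour cells. Glutaminases release its side-chain nitrogen to leave glutamate, and glutamine synthetase runs the opposite reaction. Glutamate then gives its carbon skeleton to the citric acid cycle as α-ketoglutarate, either through glutamate dehydrogenase, which frees ammonia, or through transaminases, which pass the amino group on to make aspartate or alanine. A further branch reduces glutamate to pyrroline-5-carboxylate and then to proline, and proline dehydrogenase starts the way back in the mitochondrion. STK11 encodes LKB1, a kinase that activates AMPK and related kinases and through them restrains anabolic metabolism.

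Aldh18a1 and Pycr1, which make proline from glutamate, rose in STK11 KO cells, and Prodh, which breaks proline down, fell. Gpt2, the mitochondrial alanine transaminase, rose, and Glul, glutamine synthetase, fell. Glud1, Got1, Got2 and Gls2 showed no change past the threshold. Of the 9 genes, 3 rose, 2 fell and 4 missed an adjusted p of 0.05 in edgeR's quasi-likelihood test. The background is high: 68.0% of the 13707 genes passed, 34.4% upward and 33.6% downward in STK11 KO, and the 55.6% among these 9 lies below it. None changed 2-fold, which 16.4% of all tested genes did with a call. The median log2 fold change of the 9 was 0.02, against 0.01 over all tested genes, and the median of its absolute value was 0.50, against 0.37 over all tested genes.

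Levels are given in CPM, that is, counts per 1000000 counts of the library after TMM scaling (trimmed mean of M values). Libraries held 21441601 to 25715008 counts in STK11 KO and 18837263 to 21101904 in STK11 WT, a difference in size (two-sided p = 0.0286 in an exact permutation test of 4 against 4 libraries, the smallest p this design allows). Single libraries held 233 to 6946 counts of a member gene, so none of the 9 was near the limit of detection. Mitochondrially encoded genes took 1.57% ± 0.262 of counts in STK11 KO and 2.09% ± 0.155 in STK11 WT (SD, n = 4; two-sided p = 0.0571, exact permutation test). Stk11 itself was at 34.7 ± 0.853 CPM in STK11 KO and 66.3 ± 1.79 CPM in STK11 WT (SD, n = 4), so 52.4% of its mRNA remained (95% interval 48.2% to 56.9%). These counts do not show how much of its protein remained. The span of Cbarp, on the opposite strand, overlaps that of Stk11 over 232 bases. Cbarp rose by 0.82 ± 0.10 on the log2 scale (SE; edgeR adjusted p = 2.05e-06), and its part in the Stk11 counts was not tested. The epithelial markers Krt8, Krt18, Krt19, Cdh1 and Epcam were present in both genotypes, whereas the lung lineage markers Nkx2-1 and Sftpc had 1 and 0 counts over all libraries. Napsa, a further lung marker, was low but present at 1.07 CPM in STK11 KO and 1.32 CPM in STK11 WT (edgeR adjusted p = 0.362). Of the 11 immune, endothelial and fibroblast markers, Ptprc had 1 count and Adgre1, Kdr and Col1a2 had 0. Only Cd68 (19.2 CPM in STK11 KO, 48.9 CPM in STK11 WT), Cdh5 (4.17 CPM in STK11 KO, 1.36 CPM in STK11 WT) and Col1a1 (2.32 CPM in STK11 KO, 3.68 CPM in STK11 WT) reached 1 CPM in a group, and their part in the results was not tested.

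Glul, which joins ammonia to glutamate to make glutamine, fell in STK11 KO cells. The gene, ENSMUSG00000026473.17, spans 153775690 to 153785469 of chromosome 1 (build GRCm39, plus strand). Its level was 55.2, 56.4, 57.3 and 56.5 CPM in the STK11 KO libraries, against 96.7, 93.9, 91.2 and 93.3 CPM in the STK11 WT libraries. The groups lay far apart, and the STK11 KO values spanned little more than 2 CPM. The means were 56.4 ± 0.831 CPM in STK11 KO and 93.8 ± 2.27 CPM in STK11 WT (SD, n = 4 each), a log2 fold change of -0.73 ± 0.05 (SE; edgeR adjusted p = 2.77e-11). STK11 KO cells thus held 60.1% of the STK11 WT level, with a 95% interval of 55.8% to 64.8%. In these bulk cultures, fewer cells that express a gene and less of its RNA per cell cannot be told apart.

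Gls2, the glutaminase best known from liver, runs the opposite reaction and did not pass. The gene, ENSMUSG00000044005.14, spans 128030326 to 128045873 of chromosome 10 (plus strand). Its level was 12.9, 12.6, 11.8 and 11.1 CPM in STK11 KO and 11.1, 14.0, 12.9 and 12.3 CPM in STK11 WT, so the groups overlapped. The log2 fold change was -0.06 ± 0.10 (SE; edgeR adjusted p = 0.609), with a 95% interval of -0.25 to 0.14.

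**Figure D1:**
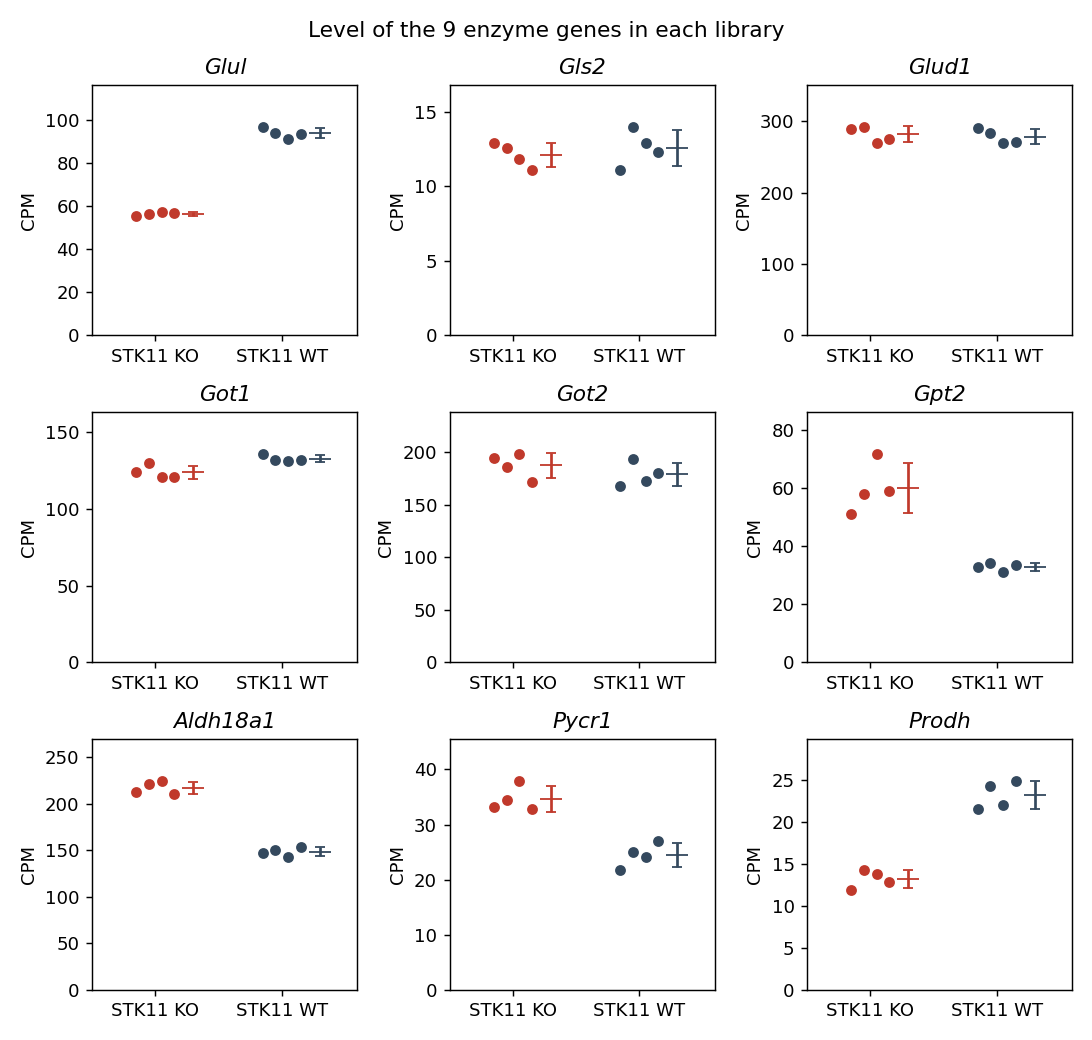
Level in CPM (vertical axes, starting at 0) of the 9 enzyme genes in the 4 STK11 KO libraries (red, left) and the 4 STK11 WT libraries (dark blue, right), points in replicate order, with the mean and SD as a bar to the right of each group. The groups are separate for Glul, Got1, Gpt2, Aldh18a1, Pycr1 and Prodh, by a narrow margin for Got1, and overlap for Gls2, Glud1 and Got2.

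Glud1, glutamate dehydrogenase, was the most abundant of the 9 and nearly level between the genotypes. The gene, ENSMUSG00000021794.17, spans 34032684 to 34067222 of chromosome 14 (plus strand). STK11 KO libraries held 290, 293, 270 and 276 CPM, and STK11 WT libraries held 291, 283, 269 and 272 CPM. The groups overlapped throughout. The log2 fold change was 0.02 ± 0.05 (SE; edgeR adjusted p = 0.79), and the 95% interval of -0.09 to 0.12 leaves room for a change of up to 1.09-fold upward.

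The aspartate transaminases exchange the amino groups of glutamate and aspartate, Got1 in the cytosol and Got2 in mitochondria, and both act in the malate-aspartate shuttle. Got1 lies on the minus strand of chromosome 19, positions 43488191 to 43513044 (ENSMUSG00000025190.14), and Got2 on the minus strand of chromosome 8, positions 96590762 to 96615175 (ENSMUSG00000031672.9). Got1 was at 124, 130, 121 and 121 CPM in STK11 KO and at 136, 132, 131 and 132 CPM in STK11 WT. These groups did not overlap, yet the highest STK11 KO value came within 2 CPM of the lowest STK11 WT value. The log2 fold change of -0.10 ± 0.05 (SE) had an edgeR adjusted p of 0.0827 and a 95% interval of -0.20 to 0.00. DESeq2 and 2 other scalings put it past the threshold, with an adjusted p of 0.0498 with DESeq2, 0.0471 with upper-quartile scaling and 0.00283 with scaling by library size alone, in a range of 0.00283 to 0.217 over all alternatives. Got2 was at 195, 186, 198 and 172 CPM in STK11 KO and at 168, 194, 173 and 181 CPM in STK11 WT, with overlapping groups and a log2 fold change of 0.07 ± 0.06 (SE; edgeR adjusted p = 0.292). The pair summed to 312 ± 12.8 CPM in STK11 KO and 312 ± 10.2 CPM in STK11 WT (SD, n = 4).

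Gpt2 makes alanine and α-ketoglutarate from pyruvate and glutamate in mitochondria, and it rose in STK11 KO cells. The gene, ENSMUSG00000031700.12, spans 86219205 to 86254189 of chromosome 8 (plus strand). STK11 KO libraries held 51.0, 57.9, 71.7 and 59.0 CPM, against 32.9, 34.1, 31.0 and 33.6 CPM in STK11 WT libraries. Every STK11 KO value lay above every STK11 WT value, and the STK11 KO group was spread more widely with replicate 3 high and replicate 1 low. The means of 59.9 ± 8.61 CPM in STK11 KO and 32.9 ± 1.34 CPM in STK11 WT (SD, n = 4 each) gave a log2 fold change of 0.87 ± 0.08 (SE; edgeR adjusted p = 3.17e-09), or 1.82-fold with a 95% interval of 1.62 to 2.05. Without STK11 KO replicate 3 the log2 fold change was 0.77 ± 0.06. Gpt, the cytosolic alanine transaminase, fell by 0.55 ± 0.12 on the log2 scale (SE; edgeR adjusted p = 0.000265). It was at 7.14 ± 1.10 CPM in STK11 KO and at 10.3 ± 0.729 CPM in STK11 WT. Gpt2 therefore supplied 89.1% ± 2.72 of the summed CPM of both genes in STK11 KO and 76.1% ± 0.702 in STK11 WT. Its exons are longer than those of Gpt, and per kb of exon its share was 81.1% ± 4.35 in STK11 KO and 62.4% ± 0.903 in STK11 WT.

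Aldh18a1 and Pycr1, which act in proline synthesis from glutamate, both rose in STK11 KO cells. Aldh18a1 encodes the 2-step enzyme that turns glutamate into pyrroline-5-carboxylate, and Pycr1 encodes a mitochondrial reductase that finishes proline. Aldh18a1 (ENSMUSG00000025007.14) lies on the minus strand of chromosome 19 from 40538701 to 40576907, and Pycr1 (ENSMUSG00000025140.16) on the minus strand of chromosome 11 from 120526538 to 120534595. The 250 bases before the annotated start of both are shown because these genes rose together, and those of Got1 because it shares a motif with Pycr1 and did not pass. The sequences are from RefSeq on build GRCm38.p6, a different build from the GRCm39 coordinates of the genes, and are written 5′ to 3′ on the minus strand, the strand of the gene. Capitals mark matches to TTGCATCA, the letters of a composite element bound by ATF4 with C/EBP partners, or to CACGTG, the E-box of MYC and related factors, on either strand.
Pycr1, chr11:120643749-120643998: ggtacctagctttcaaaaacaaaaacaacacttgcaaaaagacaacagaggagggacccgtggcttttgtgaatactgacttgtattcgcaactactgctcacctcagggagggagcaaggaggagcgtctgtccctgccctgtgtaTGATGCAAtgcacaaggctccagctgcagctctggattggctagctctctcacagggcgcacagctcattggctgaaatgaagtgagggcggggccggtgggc
Got1, chr19:43524606-43524855: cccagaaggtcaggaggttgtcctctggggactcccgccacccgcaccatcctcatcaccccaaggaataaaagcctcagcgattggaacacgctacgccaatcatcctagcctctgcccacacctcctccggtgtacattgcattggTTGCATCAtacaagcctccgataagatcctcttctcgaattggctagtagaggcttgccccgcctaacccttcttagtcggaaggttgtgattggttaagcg
Aldh18a1, chr19:40588464-40588713: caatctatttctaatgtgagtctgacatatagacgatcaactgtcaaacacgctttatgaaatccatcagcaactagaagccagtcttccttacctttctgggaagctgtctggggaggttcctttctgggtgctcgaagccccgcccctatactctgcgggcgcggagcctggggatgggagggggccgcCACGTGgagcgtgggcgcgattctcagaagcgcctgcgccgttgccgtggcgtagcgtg

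TTGCATCA began 102 bases before the start of Got1, and its reverse complement TGATGCAA began 103 bases before that of Pycr1. It occurred in 0.791% of 32851 RefSeq promoter windows of this length, and CACGTG, found 59 bases before the start of Aldh18a1, in 6.02%. Among the 8 members with a RefSeq promoter, no other held either word, Gpt2 and Glul included, and none held TGACGTCA, the cAMP response element, which occurred in 1.55% of all windows. A match is a run of letters and does not show binding.

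Aldh18a1 was at 213, 221, 224 and 210 CPM in STK11 KO libraries and at 147, 150, 142 and 154 CPM in STK11 WT libraries. The groups were far apart relative to their spread. The means were 217 ± 6.77 CPM in STK11 KO and 148 ± 4.71 CPM in STK11 WT (SD, n = 4 each), and the log2 fold change was 0.55 ± 0.05 (SE; edgeR adjusted p = 2.07e-09), or 1.46-fold with a 95% interval of 1.36 to 1.57. Pycr1 was lower in level, with 33.2, 34.5, 37.9 and 32.9 CPM in STK11 KO and 21.7, 24.9, 24.2 and 27.0 CPM in STK11 WT. Its groups did not overlap either, though they came closer together. The log2 fold change was 0.50 ± 0.08 (SE; edgeR adjusted p = 3.93e-06), or 1.42-fold with a 95% interval of 1.27 to 1.58.

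Prodh, the mitochondrial flavoenzyme that oxidises proline to pyrroline-5-carboxylate, fell. The gene, ENSMUSG00000003526.13, spans 17878221 to 17908067 of chromosome 16 (minus strand). STK11 KO libraries held 11.9, 14.3, 13.8 and 12.8 CPM, against 21.6, 24.3, 22.0 and 24.9 CPM in STK11 WT libraries. The groups were clearly separate. The means were 13.2 ± 1.05 CPM in STK11 KO and 23.2 ± 1.65 CPM in STK11 WT (SD, n = 4 each), a log2 fold change of -0.81 ± 0.08 (SE; edgeR adjusted p = 1.54e-08), which left 57.0% of the STK11 WT level (95% interval 50.5% to 64.4%). The span of Dgcr6, on the opposite strand, overlaps that of Prodh over 11276 bases, introns included, and the overlap of their exons was not measured. Dgcr6 had a log2 fold change of 0.02 ± 0.08 (SE; edgeR adjusted p = 0.84). No source used here states the strand setting of the counting, so some reads in the overlap may be shared or lost.

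**Figure D2:**
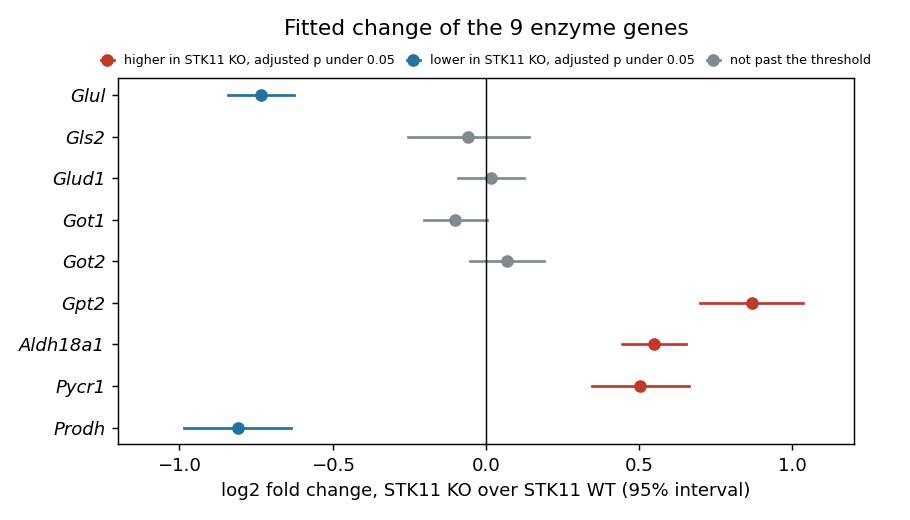
Fitted log2 fold change (horizontal axis, STK11 KO over STK11 WT) of the 9 genes, with 95% intervals as lines. Gpt2, Aldh18a1 and Pycr1 (red) lie at 0.50 to 0.87, Prodh and Glul (blue) at -0.81 and -0.73, and the 4 genes in grey have intervals that include 0.

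Of the 9 genes, 6 had groups that did not overlap, or 66.7%, against 60.6% of all tested genes. In 3 of them STK11 KO was higher, where 30.5% of all tested genes were, and in 3 it was lower, where 30.2% were. Per kb of exon the order of levels in STK11 KO was Glud1 (67.0 ± 2.60 CPM per kb), Aldh18a1 (53.3 ± 1.66), Got1 (48.8 ± 1.66), Got2 (38.9 ± 2.46), Glul (17.0 ± 0.250), Gpt2 (10.6 ± 1.53), Pycr1 (8.80 ± 0.586), Gls2 (3.49 ± 0.237) and Prodh (1.69 ± 0.135), each as mean ± SD of 4 libraries. In STK11 WT it was Glud1 (66.2 ± 2.39), Got1 (52.3 ± 0.856), Got2 (37.1 ± 2.35), Aldh18a1 (36.5 ± 1.16), Glul (28.2 ± 0.683), Pycr1 (6.21 ± 0.564), Gpt2 (5.83 ± 0.237), Gls2 (3.62 ± 0.348) and Prodh (2.98 ± 0.212). The means of Got2 and Aldh18a1, and of Pycr1 and Gpt2, differed in STK11 WT by less than the larger of their SDs. In STK11 KO, Aldh18a1 stood above both aspartate transaminase genes and Gpt2 above Pycr1, by more than these SDs. Exon lengths came from the union of all annotated exons of a gene in GENCODE M21, which can overstate the length of the transcripts in use. Among the STK11 KO libraries, replicate 3 had the highest value of all 3 genes that rose. It was also the largest library, at 25715008 counts, and the part of this in the values was not tested. Without it the log2 fold changes were 0.46 ± 0.07 for Pycr1 and 0.53 ± 0.05 for Aldh18a1 (SE).

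Other genes of glutamine, glutamate and proline metabolism were grouped into 5 lists, which are described by their counts beside the 68.0% of all tested genes that passed. Of 6 tested genes among the other proline enzymes, 3 rose and 3 fell. Their median log2 fold change was -0.04. P4ha1, which hydroxylates prolines in collagen, rose 2.06-fold to 391 ± 51.5 CPM in STK11 KO, against 190 ± 12.9 CPM in STK11 WT. Oat, ornithine aminotransferase, which links ornithine to pyrroline-5-carboxylate, rose 1.38-fold to 125 ± 9.37 CPM in STK11 KO, against 90.4 ± 5.03 CPM in STK11 WT. Pycrl, listed under this symbol and also called Pycr3, encodes a cytosolic pyrroline-5-carboxylate reductase and went the opposite way to Pycr1. It fell to 9.14 ± 1.17 CPM in STK11 KO, against 14.1 ± 0.453 CPM in STK11 WT (SD, n = 4; edgeR adjusted p = 9.36e-06). Aldh4a1, which follows Prodh in proline breakdown, fell to 6.36 ± 0.646 CPM in STK11 KO, against 9.88 ± 0.818 CPM in STK11 WT (edgeR adjusted p = 3.25e-05).

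Of 11 tested genes in the list of glutamine-using and related enzymes, 3 rose, 5 fell and 3 did not pass. The median log2 fold change was -0.16. Asns, which makes asparagine with nitrogen from glutamine, rose 3.70-fold, and Gfpt1, the first enzyme of the hexosamine pathway, rose 2.38-fold to 650 ± 86.5 CPM in STK11 KO, against 272 ± 23.4 CPM in STK11 WT. Pfas, of purine synthesis, fell to 38.5 ± 6.25 CPM in STK11 KO, against 69.4 ± 1.99 CPM in STK11 WT, and Ctps, CTP synthase, fell to 106 ± 4.30 CPM in STK11 KO, against 150 ± 5.66 CPM in STK11 WT. For Ctps the edgeR adjusted p was 2.07e-08, and for the other 3 it was smaller.

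Among 9 tested glutamate and transaminase enzymes, 2 rose, 6 fell and 1 did not pass. The median log2 fold change was -0.55. Gclc and Gclm, the catalytic and modifier subunits of the enzyme that joins glutamate to cysteine for glutathione, both fell. Gclc was at 53.6, 52.5, 49.2 and 53.0 CPM in STK11 KO, against 404, 366, 350 and 360 CPM in STK11 WT, which made it 7.12-fold lower in STK11 KO (edgeR adjusted p = 1.12e-20). Gclm was at 28.1 ± 1.35 CPM in STK11 KO and 67.5 ± 3.67 CPM in STK11 WT (SD, n = 4; edgeR adjusted p = 5.54e-14). In the opposite direction, Psat1, the transaminase of serine synthesis, rose 2.21-fold to 505 ± 24.4 CPM in STK11 KO, against 228 ± 6.64 CPM in STK11 WT, and Kyat1, a kynurenine aminotransferase, rose 1.29-fold.

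Of 8 genes for the malate-aspartate shuttle and mitochondrial carriers, 7 were tested, 5 rose, 1 fell and 1 did not pass. The median log2 fold change was 0.27, and none of them changed 2-fold. The aspartate-glutamate carrier genes Slc25a12 and Slc25a13 rose by 0.36 ± 0.06 and 0.29 ± 0.05 on the log2 scale (SE), whereas the glutamate carrier gene Slc25a22 fell to 14.5 ± 1.09 CPM in STK11 KO, against 23.7 ± 0.879 CPM in STK11 WT (edgeR adjusted p = 4.87e-08). Scaled by library size alone, 2 of the list fell.

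Of 16 transporters of the plasma membrane or lysosome, 11 were tested, of which 2 rose, 4 fell and 5 did not pass. The median log2 fold change was -0.16. Slc7a5, the large neutral amino acid transporter that exports glutamine in exchange, rose 2.86-fold to 432 ± 45.4 CPM in STK11 KO, against 151 ± 9.71 CPM in STK11 WT. Slc6a14, a broad amino acid importer, had 528 counts in STK11 KO and 2 counts in STK11 WT, a ratio of 249 (95% counting interval 68.7 to 2064, exact Clopper-Pearson, counting error only). Slc1a3, a glutamate transporter, fell to 0.244 ± 0.126 CPM in STK11 KO, against 9.03 ± 1.06 CPM in STK11 WT, and Slc1a4, a neutral amino acid exchanger, fell to 65.4 ± 9.73 CPM in STK11 KO, against 142 ± 5.35 CPM in STK11 WT. Slc1a5, the main glutamine importer of many tumour cells, is named here after its value was seen and did not pass, at 137, 144, 176 and 146 CPM in STK11 KO and 136, 143, 139 and 140 CPM in STK11 WT (log2 fold change 0.11 ± 0.06, SE; edgeR adjusted p = 0.121). Its highest value was in STK11 KO replicate 3. Without STK11 KO replicate 1, 4 transporters of the list were called higher in place of 2.

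**Figure D3:**
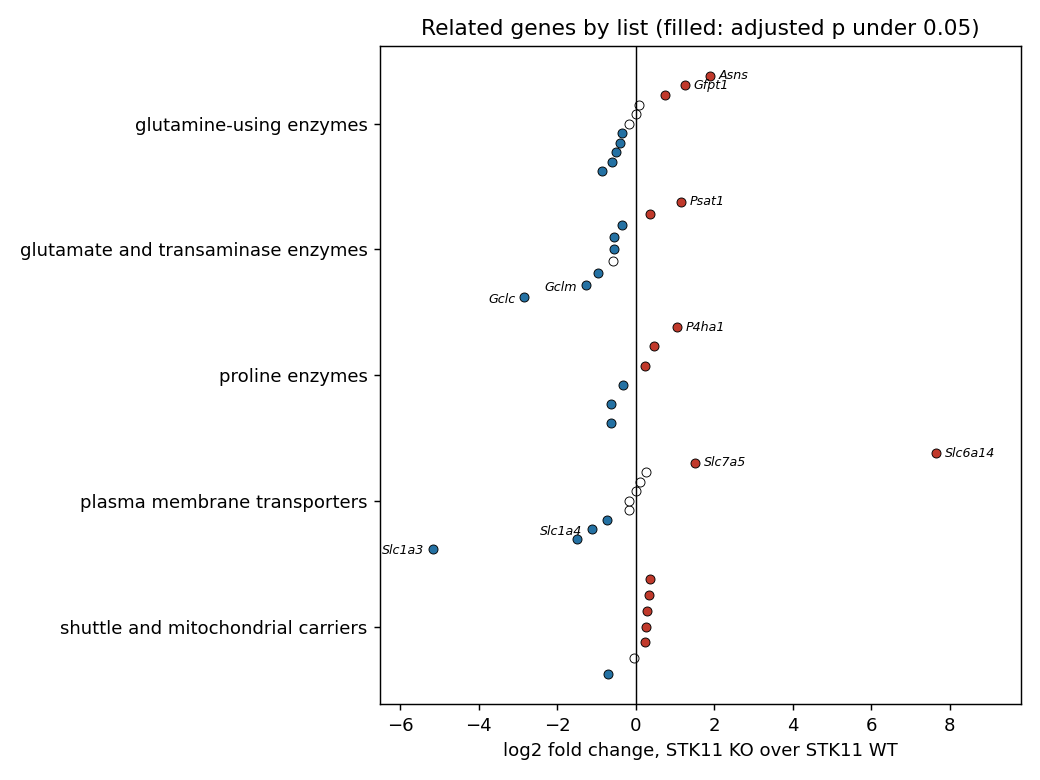
Fitted log2 fold change (horizontal axis, STK11 KO over STK11 WT) of the tested genes of the 5 lists, 1 point a gene, ordered within a list by value; filled points passed edgeR's test at an adjusted p under 0.05, red higher and blue lower in STK11 KO. Points fall on both sides of 0 in every list, and the extremes are Slc6a14, which had 2 counts in STK11 WT, and Slc1a3.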

How the data were processed

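Messenger RNA of 4 STK11 KO and 4 STK11 WT cultures was sequenced from stranded libraries as paired reads of 51 bp, per the labels' protocols. The authors deposited raw counts per gene and a second table of log2 CPM values in voom's form. Per the submitters' processing notes the build was GRCm39, and the tools were edgeR, limma, STAR 2.7.9a, featureCounts 1.6.0 and FastQC 0.11.8, with no role for each. No source used here states the strand setting or the handling of reads that map to several places.

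The count table was fitted whole with edgeR 4.0.16 (TMM scaling, filterByExpr, robust glmQLFit with adjusted deviances, glmQLFTest) with genotype as the only term. P-values were adjusted by Benjamini-Hochberg over 13707 genes and called at 0.05. Standard errors are the absolute log2 fold change over the square root of F, and 95% intervals use the fit's degrees of freedom. In simulated data for these 13707 genes, only 200 were changed. Of these, 83.6% of genes changed 1.5-fold and 95.5% of those changed 2-fold were recovered, and 3.66% of calls were false. In the real data 68.0% of tested genes were called, a far larger share, so these rates need not hold for them. Alternatives were other scalings and filters, DESeq2 1.42.0, limma 3.58.1 (voom, and the deposited log2 values), the replicate number as a block, and leaving out each library. Library sizes set the precision: 1 count was worth 0.0388 to 0.0515 CPM. The labels call the replicates independent biological ones.

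The members and lists were chosen with earlier results of these data known, and some genes of the lists are not reported here. Named from each list were the 2 called genes of smallest p in each direction, where there were as many. Outside this rule, Gpt was named for its relation to Gpt2, and Slc1a5 after its value was seen. Cbarp and Dgcr6 were named because their spans overlap those of Stk11 and Prodh. A further rule, to name genes with a like pattern, applied to members changed 2-fold, and there was none. Every column had a sample, and no sample was left out. R 4.3.3, Python 3.11.15, scipy 1.17.1, pandas 2.3.3 and matplotlib 3.10.9 were used.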

Additional observations from a re-analysis of the deposited data

Results flagged for a closer look

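Among 18 groups of 4 values tested for the 9 genes, 1 held a value far from the rest. STK11 WT replicate 1 had 136 CPM of Got1, while the other STK11 WT libraries held 131 to 132 CPM, so that the gap took up 0.898 of the group's range, above the critical value of Dixon's test at 95%. About 1 in 20 such groups is flagged by chance. Without this library the log2 fold change of Got1 was -0.09 (edgeR adjusted p = 0.188).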

How the results depend on the processing

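Gpt2, Pycr1, Aldh18a1, Glul and Prodh kept their direction and their call under all 17 alternatives, and Gls2 stayed below the threshold in all of them. Over these alternatives the log2 fold change ran from 0.77 to 0.94 for Gpt2, from 0.42 to 0.55 for Pycr1, from 0.47 to 0.57 for Aldh18a1, from -0.82 to -0.72 for Glul and from -0.89 to -0.76 for Prodh. Got1, at -0.10, passed at -0.11 with upper-quartile scaling, at -0.18 with library size alone and at -0.11 with DESeq2; the cause was not tested. Library size alone lowered the median log2 fold change of all tested genes by 0.08 (shift -0.08), and the signs of Glud1 (-0.068) and Got2 (-0.013), neither past the threshold, turned with it. Leaving out 1 library each moved Glud1 between -0.00040 and 0.039, the negative value without STK11 WT replicate 3. Transporters called higher numbered 2 to 4 when 1 library was left out, the 4 without STK11 KO replicate 1. Transporters called lower, 4 as reported, numbered 3 with a minimum of 1 CPM in 4 libraries and 5 with no filter. They numbered 6 with library size alone, with the replicate block and without STK11 KO replicate 3. Shuttle and carrier genes called lower numbered 2 with library size alone. Glutamine-using and related enzymes called higher, 3 as reported, numbered 2 with no filter, with a minimum of 1 CPM in 4 libraries and with DESeq2. They also numbered 2 without STK11 KO replicate 3 and without STK11 WT replicate 4. Those called lower numbered 5 to 6 over all alternatives. Glutamate and transaminase enzymes numbered 2 to 3 higher and 6 to 7 lower. Proline enzymes called higher numbered 2 with library size alone. Counts over all genes ran from 3921 to 5079 higher and from 4311 to 5280 lower. The replicate number as a block changed no call among the 9 genes and, among the 5 lists, changed only the count of transporters called lower, with a log2 fold change of 0.86 for Gpt2 and -0.73 for Glul. Libraries with the same number did not deviate together (correlation -0.0985 to 0.0356 across genes), so the numbers are not taken as pairs.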
